A study of Mus musculus with 10 samples.

Results

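The genes described here encode the receptor parts and peptides of calcitonin gene-related peptide (CGRP) and adrenomedullin signalling. They are Calcrl, the co-receptors Ramp1, Ramp2 and Ramp3, the receptor component Crcp and the ligand genes Adm and Calca. These 7 genes, of 24544 in the count table, were chosen by symbol and selected on earlier results of the same libraries, in which Ramp1 had one of the smallest p-values among genes lower in NEO1+ cells. Their differences between the groups are therefore a description, with no test. All 7 were in the table, 5 had a count in any library, and 4 (Ramp1, Ramp2, Calcrl and Crcp) passed the filter on low counts.

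The libraries were made from long-term hematopoietic stem cells, the rare marrow cells that can rebuild blood after transplantation. Cells came from bone marrow of Hoxb5-mCherry reporter mice aged 2 to 3 months, and every library shared the gate Lin-, cKIT+, SCA1+, CD150+, CD48-, FLK2-, CD34- and Hoxb5+. The groups differed in surface neogenin-1 only: 5 libraries held NEO1+ cells and 5 held NEO1- cells. Each library was made from 250 to 500 cells pooled from 2 mice. The labels do not say whether a NEO1+ and a NEO1- library came from the same mice.

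CALCRL is a G protein-coupled receptor that needs a receptor activity-modifying protein (RAMP) to reach the surface and to bind its ligand. With RAMP1 it forms the CGRP receptor, and with RAMP2 or RAMP3 it forms adrenomedullin receptors. These receptors act mainly through the stimulatory G protein, adenylyl cyclase and cyclic AMP. In bone marrow, CGRP is released by sensory nerve fibres and acts on blood stem cells that carry CALCRL and RAMP1, while adrenomedullin with CALCRL and RAMP2 is best known from endothelium.

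On the mm10 build and the GENCODE M21 annotation, Ramp1 (ENSMUSG00000034353.14) lies on chromosome 1 from 91179822 to 91225196, plus strand. Calcrl (ENSMUSG00000059588.13) lies on chromosome 2 from 84330626 to 84425411, minus strand, and Crcp (ENSMUSG00000025532.13) on chromosome 5 from 130029290 to 130060789, plus strand. Ramp2 (ENSMUSG00000001240.13) lies on chromosome 11 from 101246028 to 101259546, plus strand, and Ramp3 (ENSMUSG00000041046.7) on the same chromosome and strand from 6658521 to 6677475. Adm (ENSMUSG00000030790.15, plus strand) lies on chromosome 7 from 110627661 to 110629820, and Calca (ENSMUSG00000030669.13, minus strand) from 114631478 to 114636357. Ramp2 shares 1103 exon bases with Vps25, a neighbour on the same strand, so reads there may not be assigned to a single gene. The exons of Ramp1, Calcrl, Crcp, Adm and Calca overlap those of no other annotated gene.

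Promoter sequences (250 bases before to 50 after the annotated start, RefSeq, GRCm38.p6) matched 5 of the 7 genes, all but Ramp2 and Crcp. Those of Ramp1 and Calcrl, the members with most counts, and of Calca, a ligand gene with almost none, are printed to set well detected members beside a barely detected one. Capitals mark matches, on either strand, to TGACG (the core of the cyclic AMP response element), AGATAA (letters that factors of the GATA family bind), AGGAAG (the ETS family), TGTGGT (the RUNX family) or TATAAA (the TATA box).
Ramp1, chr1:91179572-91179871, plus strand: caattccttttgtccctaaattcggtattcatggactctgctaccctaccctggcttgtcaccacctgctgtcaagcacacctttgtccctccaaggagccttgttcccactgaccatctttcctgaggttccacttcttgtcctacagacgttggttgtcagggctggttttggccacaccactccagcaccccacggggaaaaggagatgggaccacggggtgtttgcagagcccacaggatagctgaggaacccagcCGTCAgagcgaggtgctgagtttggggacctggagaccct
Calcrl, chr2:84425217-84425516, minus strand: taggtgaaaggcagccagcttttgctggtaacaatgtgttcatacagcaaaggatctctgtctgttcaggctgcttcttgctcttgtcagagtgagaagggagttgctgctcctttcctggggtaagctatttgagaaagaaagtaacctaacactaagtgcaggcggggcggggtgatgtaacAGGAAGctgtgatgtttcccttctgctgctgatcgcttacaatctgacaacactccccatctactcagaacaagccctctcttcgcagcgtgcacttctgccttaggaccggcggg
Calca, chr7:114636308-114636607, minus strand: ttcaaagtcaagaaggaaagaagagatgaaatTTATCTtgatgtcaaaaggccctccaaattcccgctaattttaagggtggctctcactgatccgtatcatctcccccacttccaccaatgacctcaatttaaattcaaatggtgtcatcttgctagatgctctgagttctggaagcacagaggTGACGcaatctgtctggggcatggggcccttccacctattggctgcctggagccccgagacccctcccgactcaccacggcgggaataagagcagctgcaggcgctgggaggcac
Ramp1 held 1 match, a response element core on the reverse strand (CGTCA) beginning 10 bases after the start. Calcrl held 1 ETS match beginning 66 bases before the start. Calca held such a core 65 bases and a reverse-strand GATA match (TTATCT) 218 bases before it. No matches overlapped. Of 32851 promoters of this length, 20.8% held the response element core, 11.2% the GATA, 35.4% the ETS, 16.8% the RUNX and 13.6% the TATA letters. CpG dinucleotides numbered 6 in Ramp1, 7 in Calcrl and 8 in Calca, against a median of 7, so these windows were near the middle of all promoters by that count.

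Levels are counts per M counts (CPM) on effective library sizes, and levels between genes are compared as CPM per kilobase of exon. That length joins the exons of all annotated transcripts of a gene. Which transcripts these cells used was not determined, so comparisons between genes depend on it. Per kilobase, Ramp1 stood highest of the 7, at 37.3 ± 11.3 (SD, n = 10 libraries, both groups), and 8.39% of 12009 tested genes with a length stood above it. Crcp followed at 16.4 ± 6.91 and Calcrl at 14.6 ± 4.49 CPM per kilobase; the ranges of these neighbours overlapped over most of their width (8.91 to 27.2 and 7.85 to 22.5), so their order is not resolved. Ramp2 was lowest of the 4 detected genes, at 4.02 ± 2.24 CPM per kilobase, or 6.03 on the 2198 exon bases it does not share with Vps25. Ramp3 and Adm had 0 counts in every library, which allows up to between 0.0698 and 0.144 CPM depending on the library. Calca had 39 counts in NEO1+ library 2 (0.997 CPM; exact Poisson 95% interval 27.7 to 53.3 counts, counting error only) and 0 in the other 9. The cells thus held transcripts of the shared receptor and of 2 of 3 co-receptors, and next to none of either ligand gene.

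Ramp1, which makes CALCRL a CGRP receptor, was lower in NEO1+ than in NEO1- cells. NEO1+ libraries 1 to 5 were at 65.9, 84.4, 86.0, 88.1 and 85.3 CPM. NEO1- libraries 1 to 5 were at 149.8, 151, 155, 124 and 138 CPM. Each NEO1+ library was thus below every NEO1- library, and the space between the groups (88.1 to 124 CPM) was wider than the spread within either group. The means were 82.0 ± 9.07 and 144 ± 12.8 CPM (SD, n = 5 each), 1.75-fold higher in NEO1-, with an edgeR log2 fold change of -0.81 (SE 0.13; NEO1+ over NEO1-, as for all fold changes here). Groups that did not overlap with NEO1+ lower occurred in 1.13% of all 12203 genes tested, and with NEO1+ higher in 1.35%. Ramp1 was among the former, and none of the other 3 members tested was in either set. Over 18 other settings fitted across all genes, the log2 fold change of Ramp1 stayed between -0.86 and -0.72. The settings included leaving out each library in turn. Relative to Calcrl counts of the same library, the log2 difference was -1.26. In bulk RNA, fewer cells that express a gene and less RNA per cell cannot be told apart. The 10 markers of G2 and M phase, among them Top2a and Cdk1, summed to 268 to 469.7 CPM in NEO1+ against 68.9 to 191 CPM in NEO1- libraries, so they were higher in the group in which Ramp1 was lower; their part in its values was not tested.

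**Figure D1:**
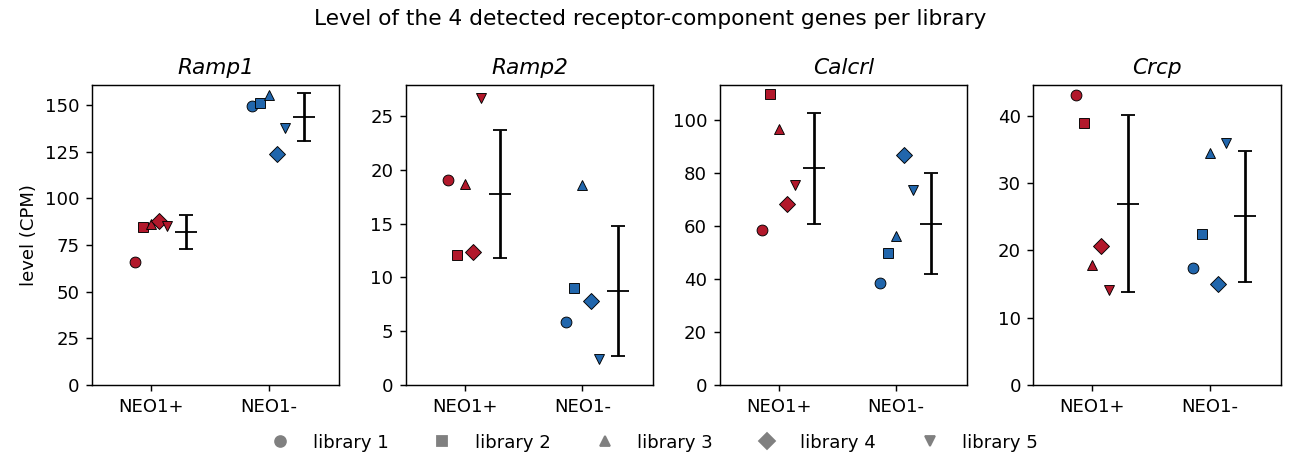
Level (CPM, linear axis from 0) of Ramp1, Ramp2, Calcrl and Crcp in each of the 5 NEO1+ (red) and 5 NEO1- (blue) libraries; marker shapes give the library number, and bars the mean and SD (n = 5). The groups are apart for Ramp1 (65.9 to 88.1 against 124 to 155 CPM) and overlap for the other 3 genes.

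Ramp2, the co-receptor for adrenomedullin, leaned the other way, but its groups overlapped. NEO1+ libraries 1 to 5 were at 19.0, 12.1, 18.6, 12.4 and 26.7 CPM. NEO1- libraries 1 to 5 were at 5.88, 9.03, 18.6, 7.77 and 2.41 CPM. NEO1- library 3 lay inside the NEO1+ range, and the other 4 NEO1- libraries lay below it. The means were 17.8 ± 5.97 and 8.74 ± 6.05 CPM (SD, n = 5 each), 2.03-fold higher in NEO1+, and the log2 fold change of 1.02 (SE 0.52) became 1.503 without NEO1- library 3 and 0.78 without NEO1- library 5. Vps25, an endosomal sorting gene that shares exon bases with Ramp2, was at 70.7 ± 3.77 and 72.8 ± 6.29 CPM (SD, n = 5 each), with overlapping groups.

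Because Ramp2 and Calcrl are endothelial genes elsewhere in the body, endothelial markers are given beside them. Of 8 endothelial markers, Cdh5 and Sox17 were at 0 in all libraries. The summed level of the 8 was 195 to 248 CPM in NEO1+ against 91.6 to 310 CPM in NEO1- libraries, most of it Tie1, which blood stem cells also express. Cldn5, a tight-junction gene of endothelium, was at 14.9 to 33.4 CPM in NEO1+ against 0.468 to 11.99 CPM in NEO1- libraries, so it was higher in the same group as the mean of Ramp2. Its part in the Ramp2 and Calcrl values was not tested.

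Calcrl, the shared receptor, had a higher mean in NEO1+ libraries, with wide overlap. NEO1+ libraries 1 to 5 were at 58.6, 109.6, 96.7, 68.2 and 75.6 CPM. NEO1- libraries 1 to 5 were at 38.3, 49.9, 56.1, 86.6 and 73.5 CPM. NEO1- libraries 4 and 5 lay inside the NEO1+ range. The means were 81.8 ± 20.95 and 60.9 ± 19.2 CPM (SD, n = 5 each), with a log2 fold change of 0.43 (SE 0.24) that was -0.072 with the number of detected genes per library as a covariate. That number was 12800 to 13808 in NEO1+ and 11477 to 13147 in NEO1- libraries, so it moved with the groups.

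Crcp encodes a protein described both as a component that couples the CGRP receptor to its G protein and as a subunit of RNA polymerase III. NEO1+ libraries 1 to 5 were at 43.1, 38.9, 17.7, 20.6 and 14.1 CPM. NEO1- libraries 1 to 5 were at 17.4, 22.4, 34.5, 14.998 and 36.0 CPM. Both groups spread over the same range, and all 5 NEO1- libraries lay inside that of NEO1+. The log2 fold change was 0.10 (SE 0.38), and its sign changed in 4 of 18 other settings.

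In the edgeR fit over all genes, 0 of the 4 tested members had an adjusted p under 0.05, and the same held for 0% of the 12203 genes tested. At an unadjusted p under 0.05 the counts were 1 of 4 members, Ramp1, and 6.60% of all genes. The members were chosen with this contrast known, so nothing is read from either count.

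Ratios of counts between members of one library need no library scaling. Ramp1 counts per Ramp2 count were 3.46, 6.97, 4.61, 7.11 and 3.20 in NEO1+ libraries 1 to 5. In NEO1- libraries 1 to 5 they were 25.5, 16.7, 8.34, 15.9 and 57.1. The groups did not overlap, although NEO1+ library 4 (7.11) and NEO1- library 3 (8.34) came close. The geometric mean ratio was 4.18-fold higher in NEO1- cells (log2 difference -2.06, SE 0.52, NEO1+ minus NEO1-). Both members contribute to it, the lower Ramp1 and the higher mean Ramp2 of NEO1+ libraries. Ramp1 was chosen with this contrast known, and how often ratios of other gene pairs separate was not computed. Nothing further is therefore read from the separation of ratios with Ramp1.

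Ramp1 counts per Calcrl count, the co-receptor set against the receptor it serves, were 1.12, 0.770, 0.890, 1.29 and 1.13 in NEO1+ libraries 1 to 5. In NEO1- libraries 1 to 5 they were 3.91, 3.03, 2.77, 1.43 and 1.87. These groups did not overlap either, with NEO1+ library 4 (1.29) and NEO1- library 4 (1.43) nearest each other. The geometric mean ratio was 2.39-fold higher in NEO1- cells (log2 difference -1.26, SE 0.29). Calcrl, whose own groups overlapped, contributes to it through its higher mean in NEO1+ libraries. Ramp1, chosen with this contrast known, was already apart between the groups by its level. The separation of this ratio is therefore not an independent result. Ramp2 per Calcrl count ran from 0.110 to 0.353 in NEO1+ and from 0.0328 to 0.332 in NEO1- libraries, and the groups overlapped. Its geometric mean was 1.75-fold higher in NEO1+ cells (log2 difference 0.81, SE 0.64). Ramp1 per Crcp count ran from 1.53 to 6.04 in NEO1+ and from 3.83 to 8.63 in NEO1- libraries, so these groups overlapped (log2 difference -0.86, SE 0.44). The groups also overlapped for Ramp2 per Crcp and Crcp per Calcrl count.

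**Figure D2:**
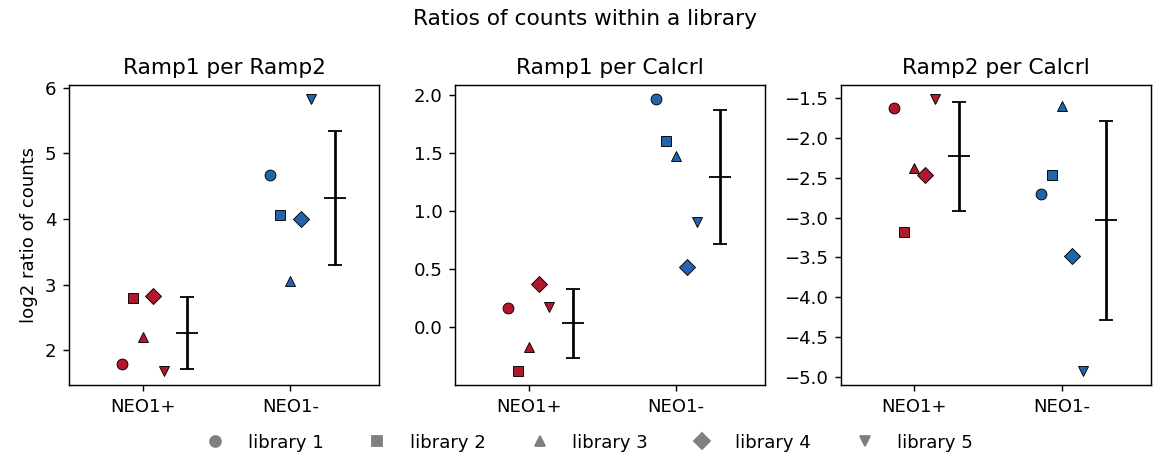
Log2 ratio of raw counts within a library for Ramp1 per Ramp2, Ramp1 per Calcrl and Ramp2 per Calcrl, by group; marker shapes give library numbers 1 to 5 as in the plot of levels, and bars the mean and SD (n = 5). The groups are apart in the first pair of panels and overlap in the panel of Ramp2 per Calcrl.

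Per kilobase of merged exon (3022 bases for Ramp1 and 3301 for Ramp2), Ramp1 made up most of the RAMP level in every library. A shorter Ramp2 transcript would lower this share. Its share of the sum of Ramp1, Ramp2 and Ramp3 was 79.1, 88.4, 83.4, 88.6 and 77.7% in NEO1+ libraries 1 to 5. In NEO1- libraries 1 to 5 it was 96.5, 94.8, 90.1, 94.6 and 98.4%. The means were 83.4 ± 5.06% and 94.9 ± 3.09% (SD, n = 5 each), and the ranges did not overlap. With Ramp3 at 0 counts, the share is fixed by the Ramp1 per Ramp2 ratio, so its separation is that same result and not a further one. With the bases shared with Vps25 taken off the length of Ramp2, an alternative chosen after seeing the data, the ranges were 69.9 to 83.8% and 85.9 to 97.6%. That length changes the level of the share and could not change whether the groups overlap.

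**Figure D3:**
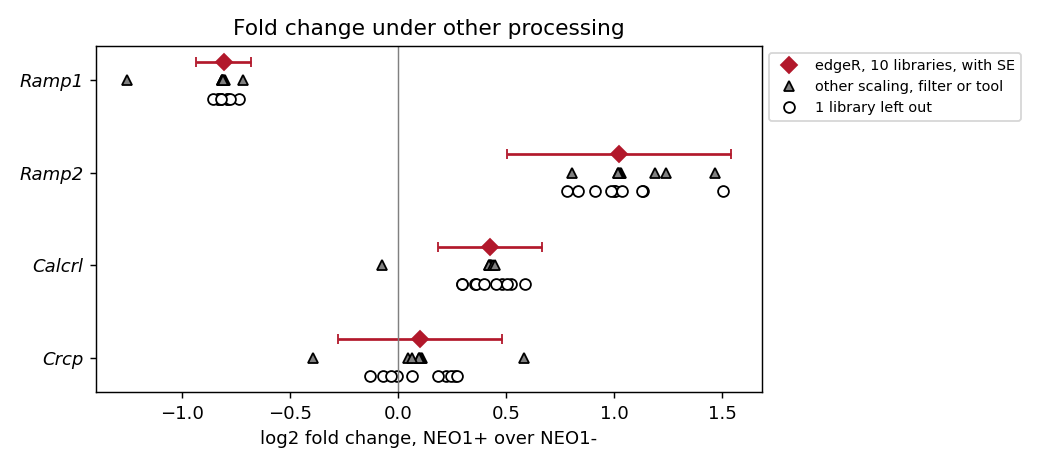
Log2 fold change (NEO1+ over NEO1-) of Ramp1, Ramp2, Calcrl and Crcp in edgeR with its SE (red diamonds), under 8 other scalings, filters, covariates or tools (grey triangles) and with 1 of the 10 libraries left out (open circles). In these fits Ramp1 stays between -0.86 and -0.72, Ramp2 between 0.78 and 1.503, Calcrl reaches -0.072 and Crcp lies on both sides of 0. A further grey triangle for Ramp1 (-1.26), Ramp2 (0.81) and Crcp (-0.39) gives the value relative to Calcrl counts of the same library.

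The genes whose log2 CPM most resembled that of Ramp1 over the 10 libraries were Wdr74, Myl12b, Alkbh7, Mcrip2 and Ptpn18 (Pearson r 0.936, 0.935, 0.933, 0.929 and 0.924, of 8991 genes with a mean of at least 10 CPM). All 5 had lower means in NEO1+ libraries, such as Wdr74 at 31.0 against 52.6 CPM and Mcrip2 at 11.7 against 25.7 CPM. Choice by likeness to Ramp1 over both groups favours such genes, so nothing is read from their direction. For Calcrl they were Rfwd2, Ankrd13a, Copg1, Ptpn6 and Ugdh (r 0.928 to 0.878), and for Crcp Ogfod2, Camkk1, Zfand3, Actr1b and Sec62 (r 0.922 to 0.867). None of these 15 genes was among the members or the pathway lists. These correlations describe libraries that share group and depth and carry no p.

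The remaining ligands and the receptor of the calcitonin family were as good as silent. Calcb (a second CGRP gene), Iapp (amylin) and Calcr (the calcitonin receptor) had 0 counts in all 10 libraries, and Adm2 had 18 counts in 1 library. Receptors other than CALCRL that are known to pair with RAMPs were nearly so: 5 of 9 had 0 counts, and the highest mean was 0.833 CPM, for the parathyroid hormone receptor Pth1r in NEO1+ libraries. The glucagon receptor Gcgr had counts in 1 library (45 counts), as did Pth2r (7 counts).

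The 11 lists of other pathway genes were read in the same fit; 142 of their 144 symbols were in the table, and 83 genes were tested. In edgeR, 0 of the 83 passed an adjusted p of 0.05 in either direction, and at an unadjusted p under 0.05 there were 8, of which NEO1+ was the higher group in 6 and the lower in 2, beside 6.60% of all genes. Their median log2 fold change was 0.08, against 0.01 for all genes tested. Among the 83, the groups did not overlap for Ece1, Pde7a and Tacr1, with NEO1+ higher. The same held for 1.35% of all 12203 genes tested.

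Peptide processing and clearance had 3 of 8 genes tested, with 0 called and a median log2 fold change of 0.16. Ece1, an endothelin-converting enzyme that also cleaves CGRP inside endosomes, was at 76.7, 74.5, 61.6, 71.3 and 57.5 CPM in NEO1+ libraries 1 to 5. The values of NEO1- libraries 1 to 5 were 56.6, 25.3, 44.9, 31.4 and 33.2 CPM. The groups did not overlap, narrowly so at 57.5 against 56.6 CPM. The log2 fold change was 0.84 (SE 0.23), with an edgeR adjusted p of 0.381, and the log2 fold change was 1.26 with genes detected as a covariate. Pam, which amidates the ends of CGRP and adrenomedullin, was at 51.2 ± 3.32 and 46.0 ± 14.3 CPM, and Furin, a proprotein protease, at 33.8 ± 4.56 and 38.4 ± 11.6 CPM (SD, n = 5 each). The adrenomedullin decoy receptor Ackr3 did not pass the filter on low counts.

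The stimulatory G protein, adenylyl cyclases, protein kinase A and EPAC had 15 of 19 genes tested, with 0 called. Of the 15, 13 had a log2 fold change above 0 and the median was 0.29, beside 6228 of all 12203 genes tested and a median of 0.01. Gnas, the alpha subunit that CALCRL activates, was abundant, with overlapping groups, at 613 ± 39.04 and 590 ± 62.7 CPM (SD, n = 5 each; log2 fold change 0.06, SE 0.09). Prkar1a and Prkar2b, regulatory subunits of protein kinase A, were at 368 ± 26.7 and 340.2 ± 33.5 CPM, and at 152 ± 16.8 and 127 ± 29.7 CPM. Prkacb, a catalytic subunit, had the smallest p of those higher in NEO1+, at 157 ± 36.2 and 112 ± 28.9 CPM (log2 fold change 0.48, SE 0.20, edgeR adjusted p 0.691). Adcy7, a cyclase of blood cells, was at 77.0 ± 6.06 and 85.2 ± 24.3 CPM. With genes detected as a covariate the log2 fold change was 0.04 for Prkacb, 0.09 for Prkar2b (main fit 0.26) and -0.04 for Gnas. Those of Prkar1a (0.13, main fit 0.12) and Adcy7 (0.008, main fit -0.15) were higher with the covariate.

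Phosphodiesterases, which break down cyclic nucleotides, had 12 of 15 genes tested, with 0 called and a median log2 fold change of 0.26. Pde2a averaged 80.5 ± 16.1 CPM in NEO1+ against 50.3 ± 13.5 CPM in NEO1- cells (SD, n = 5 each; log2 fold change 0.68, SE 0.22, edgeR adjusted p 0.547). Pde7a, named after its values were seen, was at 20.5 to 55.5 CPM in NEO1+ against 2.61 to 19.1 CPM in NEO1- libraries, so its groups did not overlap (log2 fold change 1.52, SE 0.50, edgeR adjusted p 0.548). Pde4b was at 110.4 ± 11.96 and 115 ± 38.6 CPM and Pde1b at 63.7 ± 11.7 and 62.8 ± 35.0 CPM. Pde3a, with the smallest p of those lower in NEO1+, had a mean of 1.596 CPM over all libraries and log2 fold changes of -0.95 (SE 1.97) with all libraries and 2.02 when NEO1- library 1 was left out.

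Arrestins and receptor kinases, which shut off such receptors, had 6 genes tested, 0 called and a median of -0.14. Grk2 was at 153 ± 15 and 166 ± 40.0 CPM, Grk6 at 46.3 ± 9.15 and 41.2 ± 26.5 CPM, and Arrb1 at 33.6 ± 13.1 and 37.5 ± 21.3 CPM (NEO1+ then NEO1-, SD, n = 5 each). Arrb2 had a log2 fold change of -0.41 (SE 0.52) and Grk4 one of 1.65 (SE 1.45) at a mean of 2.41 CPM.

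CREB factors and their coactivators had 8 genes tested, with 0 called and a median of 0.07. Crebbp, the acetyltransferase that binds phosphorylated CREB, averaged 38.8 ± 12.8 CPM in NEO1+ against 59.1 ± 15.9 CPM in NEO1- cells (SD, n = 5 each; log2 fold change -0.61, SE 0.25, edgeR adjusted p 0.673). Its relative Ep300 was at 49.4 ± 9.29 and 46.9 ± 14.3 CPM, and the coactivator Crtc1 at 58.9 ± 9.41 and 55.9 ± 13.1 CPM. Atf1, a CREB family factor, had a log2 fold change of 0.71 (SE 0.40).

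Genes that cyclic AMP and CREB can induce had 10 of 10 tested and 0 called, with 4 log2 fold changes above and 6 below 0 and a median of -0.14. Levels within the list ran from a mean of 1.16 CPM for Nr4a3 to those of the most abundant members: Fos averaged 2330 ± 927 CPM in NEO1+ against 2602 ± 831 CPM in NEO1- cells, Egr1 789 ± 341 and 730.3 ± 206 CPM, and Dusp1 615 ± 195 and 667 ± 128 CPM (SD, n = 5 each). These are also immediate early genes that respond to cell handling. Junb had a log2 fold change of 0.26 (SE 0.20) and Per1 one of -0.45 (SE 0.22), neither of which passed (edgeR adjusted p 0.916 and 0.784).

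**Figure D4:**
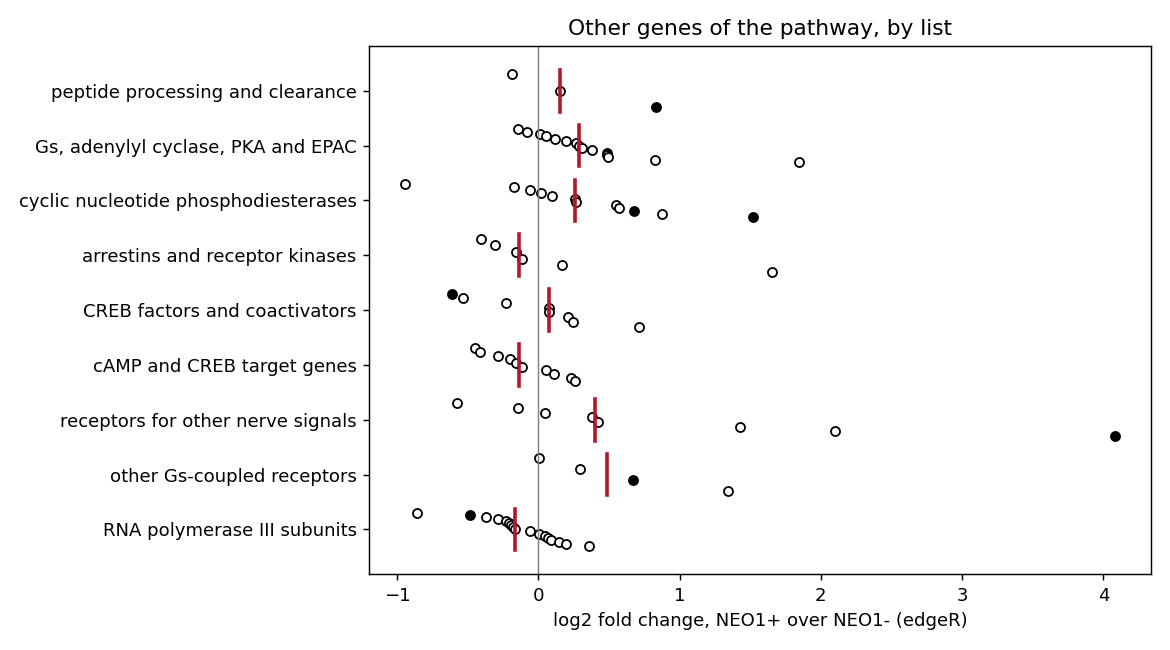
Log2 fold change (NEO1+ over NEO1-, edgeR) of each of the 83 tested pathway genes, in rows by list; filled circles have an unadjusted p under 0.05, and red bars give the list medians, from -0.16 to 0.48. Filled circles are 8 of 83, and 0 of 83 passed after adjustment.

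Receptors for other nerve signals were mostly silent: 27 of 39 had 0 counts in all libraries and 8 were tested, with 0 called. Vipr2, a receptor for vasoactive intestinal peptide, was at 37.6 ± 5.99 and 36.4 ± 11.3 CPM (NEO1+ then NEO1-, SD, n = 5 each). Tacr1, the receptor for substance P, which sensory fibres release together with CGRP, was low. It was at 11.4, 6.31, 2.33, 4.01 and 4.41 CPM in NEO1+ libraries 1 to 5, and at 0, 0, 0.7104, 0.941 and 0 CPM in NEO1- libraries 1 to 5. The groups did not overlap; the log2 fold change of 4.08 (SE 1.61) did not pass (edgeR adjusted p 0.633) and was 6.62 in the fit with the replicate block.

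Among 6 other receptors that raise cyclic AMP, 4 were tested and 0 called, with a median of 0.48. Ptger4, a prostaglandin E receptor, was at 71.1, 71.2, 67.3, 58.9 and 63.2 CPM in NEO1+ libraries 1 to 5 and at 30.1, 33.3, 33.0, 60.7 and 51.1 CPM in NEO1- libraries 1 to 5. NEO1- library 4 alone lay inside the NEO1+ range. The log2 fold change was 0.67 (SE 0.22, edgeR adjusted p 0.547), and 0.27 with genes detected as a covariate. The adenosine receptor Adora2a was at 36.7 ± 5.47 and 29.9 ± 10.6 CPM, and the histamine receptor Hrh2 at 7.57 ± 5.68 and 2.97 ± 2.54 CPM (SD, n = 5 each).

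RNA polymerase III subunits, listed because Crcp is one, had 17 of 17 genes tested and 0 called, with 7 log2 fold changes above and 10 below 0 and a median of -0.16. Polr3gl had the smallest p, at 38.96 ± 6.43 and 54.3 ± 14.0 CPM (SD, n = 5 each; log2 fold change -0.48, SE 0.22, edgeR adjusted p 0.745). Polr2e, Polr1d and Polr3k had log2 fold changes of -0.16, -0.20 and -0.18 (SE 0.17, 0.15 and 0.19), and Polr3f one of 0.36 (SE 0.43). Crcp, at 0.10, lay inside the range of this list.

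Library totals were 21.2 to 38.95 M counts. Of the 9 stem cell markers all were detected, Kit among them, with sums of 2018 to 2281 CPM in NEO1+ against 1952 to 2424 CPM in NEO1- libraries. Neo1 was at 12.5 to 64.7 CPM in NEO1+ against 4.55 to 18.9 CPM in NEO1- libraries; NEO1+ library 4, at 12.5 CPM, lay inside the NEO1- range, and without it the log2 fold change of Ramp1 was -0.84 and that of Ramp2 1.13. Markers of S phase, led by Mcm6 and Pcna, summed to 1028 to 1545 and 589 to 1128 CPM. Sums of the other marker lists overlapped: granulocytes and monocytes (Lyz2 and Mpo highest) 492 to 4275 and 379.5 to 3061 CPM, erythroid cells (Car1, Epor) 22.8 to 314 and 9.73 to 198 CPM, and megakaryocytes (Itga2b, Gp9; Gp6 at 0) 64.9 to 124 and 62.3 to 119.5 CPM. Stromal cells (Cxcl12, Pdgfrb; Lepr at 0) had 2.76 to 33.0 and 0 to 13.7 CPM. Nerve and Schwann cells had 3.25 to 11.1 and 2.35 to 15.1 CPM (Gfap among them), with Sox10, Tubb3 and Prph at 0. Mast cell and basophil markers (Cpa3, Mcpt8; Ms4a2 and Cd200r3 at 0) summed to at most 4.03 CPM and lymphoid markers (Cd79a, Ebf1; Cd3e, Dntt and Rag1 among those at 0) to at most 3.62 CPM. Of erythroid markers Hba-a2, Hbb-bs and Hbb-bt were at 0.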

How the data were processed

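RNA of sorted cells was amplified by Smart-seq2 with 18 PCR cycles, and 40 ng of cDNA was tagmented, per the labels' protocols. There were no molecular identifiers, so intervals and floors (3 counts for a count of 0) cover counting error only. The submitters' processing notes name mm10, bcl2fastq 2.18, STAR 2.4 and DESeq2 1.22.2; the counting tool, annotation and strand setting are not given in the sources used here. The authors deposited raw counts for 24544 gene symbols and a table of log2 values. Each deposited log2 value equalled log2(count / s + 1), with 1 constant s per library (largest residual 5.15e-14).

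Counts of all 10 libraries were fitted with edgeR 4.0.16 (R 4.3.3; filterByExpr, TMM, robust quasi-likelihood test). Benjamini-Hochberg adjustment ran over the 12203 genes tested, with a threshold of 0.05. Each SE was obtained by dividing the absolute log2 fold change by the square root of its F statistic. CPM use effective library sizes, log2 CPM a prior count of 2, and lengths the merged exons of GENCODE M21. Alternatives were median-ratio and upper-quartile scaling, no count filter, removal of Rn45s, DESeq2 1.42.0, limma 3.58.1 (limma-trend) on the deposited values, genes detected as a covariate, the replicate block and leaving out each library. The fits were tested on simulated data whose planted changes were larger than the fold changes of the members. Recovery of changes as small as those of the members was not tested. Library totals ran from 21.2 to 38.95 M counts.

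The members and lists were chosen with earlier results of these data known. Named from each pathway list were the 3 genes of highest mean CPM and the tested gene of smallest p in each direction; from each marker list the 2 highest and those at 0 throughout. Some genes that this rule names are not reported here. Of the pathway symbols, Adrbk1 and Adrbk2 are older names of Grk2 and Grk3, which were in the table. P-values measure the spread between libraries of 2 pooled mice. Libraries within a group differed by a chi-square of at least 86.7 per degree of freedom, so none was a duplicate.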

Additional observations from a re-analysis of the deposited data

Results flagged for a closer look

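In NEO1+ library 1 the log2 CPM of Ramp1 was 6.04, and the remaining 4 libraries of that group lay between 6.40 and 6.46, a gap to its nearest neighbour of 0.853 of the range of the group, above Dixon's critical value for 5 samples. It was the only one of 14 groups of 5 values examined (levels of 4 genes and 3 ratios of counts, each in both groups) with such a gap, where 0.7 are expected by chance. That library had the lowest total, 21.2 M counts. Without it the log2 fold change of Ramp1 was -0.74.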

How the results depend on the processing

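Over 18 alternatives fitted across all genes, Ramp1 and Ramp2 kept their sign in 18, Calcrl in 17 and Crcp in 14. Set against Calcrl counts of the same library, the log2 fold change of Ramp1 was -1.26. With genes detected as a covariate the log2 fold change of Calcrl was -0.072; the cause was not tested. With 1 library left out, Ramp1 ranged from -0.86 to -0.74 and Calcrl from 0.30 to 0.59. Against 0 of 12203 genes called in edgeR at an adjusted p of 0.05 (806 at an unadjusted p under 0.05), DESeq2 called 147 of 14606 genes with a p-value. Of the 147, 1 was a member, Ramp1, which was chosen with this contrast known, so nothing is read from its call. No count filter gave 2 genes, limma-trend on the deposited values 1, and leaving out 1 library 0 to 1, the 1 being without NEO1- library 1. No alternative called a pathway gene. In limma-trend the median log2 fold change of all genes was 0.11, against 0.01.

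Both groups carry numbers 1 to 5, and the main fit did not take the numbers as pairs. Deviations of same-numbered libraries correlated at 0.00 to 0.04 over the tested genes. That low correlation cannot decide whether the libraries were paired, and 3 of 5 NEO1+ libraries correlated best with their own number. With the replicate block, log2 fold changes were -0.81 for Ramp1, 1.19 for Ramp2, 0.45 for Calcrl and 0.06 for Crcp, with 0 genes called and 874 at an unadjusted p under 0.05. The block reduced the SE of Fos from 0.24 to 0.05 and that of Egr1 from 0.25 to 0.09, and Fos was lower in NEO1+ in 5 of 5 same-numbered libraries; its log2 fold change with the block was -0.18 (edgeR adjusted p 0.537). These immediate early genes thus followed the number, while the correlation over all tested genes stayed at 0.00 to 0.04. Whether same-numbered libraries came from the same mice is not stated in the labels, and the main fit did not use the numbers. For Ramp3 and Adm, at 0 counts in all libraries, no difference could be measured.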
